A study of Mus musculus with 13 samples.

Results

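KRAB zinc finger gene clusters are stretches of the mouse genome where genes for KRAB zinc finger proteins lie side by side. They are described here by the ChIP-seq peaks of H3K9me3 and H3K27me3 that fall in 5 windows of build mm9. The windows run on chromosome 2 from 174.9 to 178.0 Mb, on chromosome 4 from 144.5 to 147.8 Mb, on chromosome 13 from 62.0 to 63.5 Mb (the first window there) and from 65.9 to 68.2 Mb (the second), and on chromosome 17 from 21.0 to 23.5 Mb. A peak was a member of the window that held its midpoint. The 5 windows span 12.7 Mb and held 1681 of the 185431 peaks in the 8 lists, made up of 205 on chromosome 2, 564 on chromosome 4, 306 and 324 in the first and second windows of chromosome 13, and 282 on chromosome 17. By mark, 1555 of 123915 H3K9me3 peaks, 74 of 37381 H3K27me3 peaks after tamoxifen and 52 of 24135 H3K27me3 peaks without it were members.

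KRAB zinc finger proteins bind DNA through arrays of zinc fingers, and many of them bind transposable elements. Through the KRAB domain they recruit the corepressor TRIM28, and with it SETDB1, the methyltransferase that places H3K9me3 at such sites in embryonic stem cells. In human cells the zinc finger gene clusters themselves are known to carry H3K9me3, while H3K27me3 is placed by Polycomb repressive complexes and is known for developmental genes.

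The cells were J1 mouse embryonic stem cells with an inducible knockout of Setdb1, grown without feeder cells, and every group carried the inducible allele. Tamoxifen at 2.5 µM was given to induce the loss of Setdb1, and cells given only the solvent are called untreated. The lists came from H3K9me3 in untreated cells (n = 4), H3K27me3 after tamoxifen (n = 2) and H3K27me3 in untreated cells (n = 2). The sources used here do not give the driver of the recombinase or the number of clones. H3K9me3 after tamoxifen and the 5 inputs were not analysed here, so neither the loss of Setdb1 nor its effect on H3K9me3 could be checked.

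Replicate 1 of each group was called with an older version of the peak caller and forms a first batch, and the other lists form a second batch. Replicate 4 of H3K9me3 has no antibody named in its label and was placed by its title. Lists held 18037 to 42725 H3K9me3 peaks and 7041 to 22265 H3K27me3 peaks, with positions alone, so read depth and peak height are unknown. Each window was therefore set against the rest of the same chromosome in the same list. The labels do not say whether libraries of a group are separate cultures, and p-values then reflect just the spread of these samples, possibly a technical one. No annotation of mm9 was used, so the gene content of the windows was not checked here.

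On the 4 chromosomes, runs of neighbouring genes with a Zfp symbol, the usual symbol of mouse zinc finger protein genes, are a matter of record in RefSeq's table of build GRCm38.p6. Such genes make up 4.46% of the protein-coding genes of its chromosome 13, 4.34% on chromosome 17, 2.03% on chromosome 4 and 1.52% on chromosome 2, against 1.81% over all chromosomes. The longest unbroken run on chromosome 13 is 20 genes, between Zfp455 and Zfp273. The longest runs elsewhere were 9 genes on chromosome 4 (Zfp978 to Zfp933), 8 on chromosome 17 (Zfp760 to Zfp994) and 2 on chromosome 2 (Zfp442 and Zfp345). The builds differ, so these genes were not placed in the windows. Genes of the same family under other symbols are not in these shares.

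H3K9me3 peaks of untreated cells were denser in the zinc finger windows than in the rest of the same chromosomes. Over the 5 windows together, 79.1, 41.9, 62.2 and 49.9 kb per Mb lay in peaks in replicates 1 to 4, against 19.9, 14.6, 21.6 and 16.7 kb per Mb in the rest of the chromosomes, weighted by window length. The lowest window value was above the highest value of the rest. The ratio of window to rest was 3.97 in replicate 1, 2.87 in replicates 2 and 3, and 2.998 in replicate 4. Its geometric mean was 3.15, a log2 ratio of 1.65 ± 0.22 (SD, n = 4, two-sided exact sign-flip permutation p = 0.125). This is the smallest p that 4 libraries allow, so none of the comparisons of windows with the rest could reach 0.05.

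All 5 windows lay above their chromosome in 4 of 4 libraries, by different amounts. The first window of chromosome 13 was the most densely covered, at 111 ± 18.6 kb per Mb (SD, n = 4). Next came the chromosome 4 window at 74.2 ± 24.7, the second window of chromosome 13 at 56.8 ± 29.6, the chromosome 17 window at 41.6 ± 7.33 and the chromosome 2 window at 30.4 ± 9.66 kb per Mb. Going down this order, the first window of chromosome 13 was above chromosome 4, and chromosome 4 above the second window of chromosome 13, in 4 of 4 libraries. The second window of chromosome 13 was above chromosome 17, and chromosome 17 above chromosome 2, in 3 of 4 libraries, so those neighbours were not separated by the spread between libraries.

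**Figure D1:**
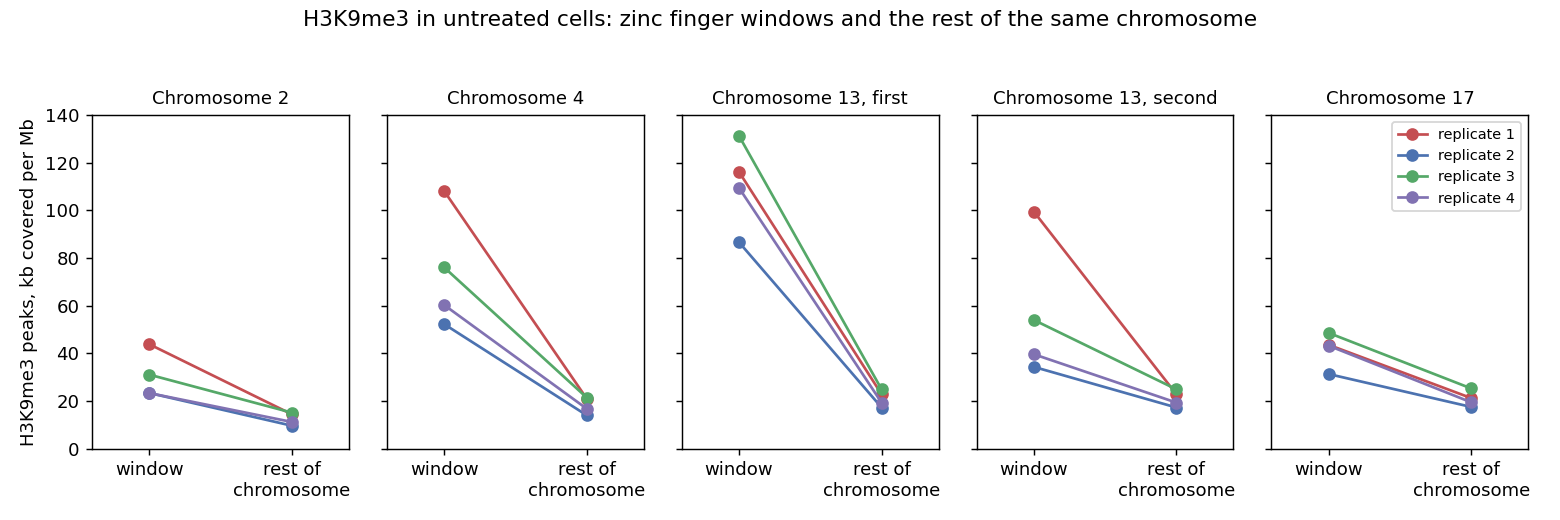
Kb covered by H3K9me3 peaks per Mb (vertical axis) in each zinc finger window, on the left of each panel, and in the rest of the same chromosome, on the right. Each line is 1 library of untreated cells, and all 20 lines run lower in the rest than in the window.

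In the first window of chromosome 13, coverage was 116, 86.6, 131 and 109 kb per Mb in replicates 1 to 4, against 22.8, 17.2, 24.9 and 19.3 kb per Mb in the rest of the chromosome. The geometric mean ratio was 5.26, the highest of the 5 windows, and the 4 libraries lay between 5.03 and 5.67. Chromosome 4 was the higher one in replicate 1, at 5.16 against 5.09, and with 5 Mb on either side in place of the whole chromosome, at 4.74 against 4.28. In the chromosome 4 window, coverage was 108, 52.2, 76.0 and 60.3 kb per Mb, against 20.9, 14.0, 21.4 and 16.7 in the rest. Replicate 1 was the highest there, with a ratio of 5.16 against 3.56 to 3.74 in the others, for a geometric mean of 3.97.

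The second window of chromosome 13 was the one in which the batches differed the most. Replicate 1 covered 99.4 kb per Mb, and replicates 2 to 4 covered 34.3, 54.0 and 39.6, against 22.8, 17.2, 24.9 and 19.3 kb per Mb in the rest of the chromosome. The ratio was thus 4.36 in replicate 1 and 1.99 to 2.17 in the others, and the geometric mean of 2.49 became 2.07 without replicate 1. The part of the peak caller's version and of depth in this difference was not tested.

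On chromosome 17 the window held 43.5, 31.3, 48.5 and 43.2 kb per Mb, against 21.2, 17.5, 25.2 and 19.4 kb per Mb in the rest, a geometric mean ratio of 1.99. Set against 5 Mb on either side in place of the whole chromosome, this ratio was 1.23, again above 1 in 4 of 4 libraries. On chromosome 2 the window held 43.8, 23.3, 31.0 and 23.3 kb per Mb, against 14.4, 9.60, 15.1 and 11.2 kb per Mb, a ratio of 2.38. The two-sided exact sign-flip permutation p was 0.125 for each window, and 0.125 after Benjamini-Hochberg adjustment over the 5 windows.

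Each chromosome was also cut into tiles of the same length as its window. Tiles that overlapped any zinc finger window of the chromosome were left out, so the windows of chromosome 13 were not ranked against each other. The chromosome 4 window ranked 1 of 45, and the first window of chromosome 13 ranked 1 of 74, with no tile higher in any library. The first window of chromosome 13 held 111 kb per Mb on average, against a highest tile of 66.6 and a median tile of 16.7 kb per Mb. The second window of chromosome 13 ranked 1 of 49 by its mean of 56.8 kb per Mb, just above the highest tile at 56.1. In each of replicates 2, 3 and 4, 3 tiles were higher. Chromosome 2 ranked 3 of 57, with no tile higher in replicate 1 and 3, 3 and 4 tiles higher in replicates 2 to 4. Chromosome 17 ranked 4 of 36, with 2, 3, 3 and 2 tiles higher in replicates 1 to 4.

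The higher coverage came with more peaks per Mb in every window, and with wider peaks in 4 of the 5. Over all windows, 293, 366, 482 and 414 H3K9me3 peaks in replicates 1 to 4 made 23.1, 28.8, 38.0 and 32.6 peaks per Mb, against 7.01, 11.7, 16.9 and 13.3 per Mb in the rest. The number ratio had a geometric mean of 2.59 over the windows, from 1.73 on chromosome 2 and 2.01 on chromosome 17 to 2.60 in the second window of chromosome 13, 3.08 on chromosome 4 and 3.58 in the first window of chromosome 13.

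The median peak was 2703, 891, 979.5 and 939.5 bp wide in the windows, against 1890, 798, 829 and 816 bp in the rest, a geometric mean ratio of 1.21 with the windows higher in 4 of 4 libraries. Replicate 1 had by far the widest peaks in both places. The width ratio was 1.35 in the first window of chromosome 13, 1.33 on chromosome 2, 1.21 on chromosome 4 and 1.12 on chromosome 17. In the second window of chromosome 13 it was 0.976, with 2519, 705, 790 and 770 bp in the window against 1926, 829.5, 858 and 868.5 bp in the rest, and only replicate 1 was wider there (two-sided exact sign-flip permutation p = 0.875). That window therefore had more peaks, but in the second batch narrower ones.

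Wide peaks took a larger share over the pooled windows in every library, but not in each window. Peaks of 5 kb or wider made up 21.2%, 4.10%, 5.39% and 5.31% of the window peaks in replicates 1 to 4, against 17.9%, 2.59%, 2.80% and 2.60% in the rest. Peaks of 10 kb or wider made up 3.75%, 0.546%, 1.04% and 0.483% against 1.56%, 0.337%, 0.336% and 0.251%, which rests on 11, 2, 5 and 2 window peaks. In the first window of chromosome 13 the share of peaks of 5 kb or wider was 27.9%, 8.33%, 12.1% and 12.05%, and on chromosome 4 it was 23.0%, 4.31%, 6.29% and 6.50%. It was below the rest in every library in the second window of chromosome 13, at 17.3%, 1.45%, 1.01% and 1.32%, and on chromosome 17, at 15.0%, 1.56%, 2.50% and 2.47%. These shares rest on 13, 1, 1 and 1 peaks in the former and 6, 1, 2 and 2 in the latter. In replicates 2 to 4 the order thus hangs on single peaks. The rest is here that of the 4 chromosomes together. The widest single peak in the windows, at 17038 bp, was in replicate 3 in the first window of chromosome 13.

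Peaks also lay closer together in the windows. The median gap from the end of a peak to the start of the next was 15163, 9424, 7340 and 8168 bp in the windows, against 69942, 35313, 25773 and 31148 bp in the rest. The geometric mean ratio was 0.256, and the window gap was the shorter in 4 of 4 libraries (two-sided exact sign-flip permutation p = 0.125). By window the ratio was 0.171 in the first window of chromosome 13, 0.204 on chromosome 4, 0.273 on chromosome 2, 0.460 in the second window of chromosome 13 and 0.663 on chromosome 17.

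On chromosome 17 the spacing depended on what it was set against. Compared with 5 Mb on either side, the gaps there were longer in the window, with a ratio of 1.21, while peaks per Mb were more numerous in the window, with a ratio of 1.49, each in 4 of 4 libraries. The shortest gaps of the windows resembled those elsewhere in the second batch, with the 5th percentile at 829, 812 and 831 bp in the windows and 962, 938 and 955 bp in the rest for replicates 2 to 4.

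**Figure D2:**
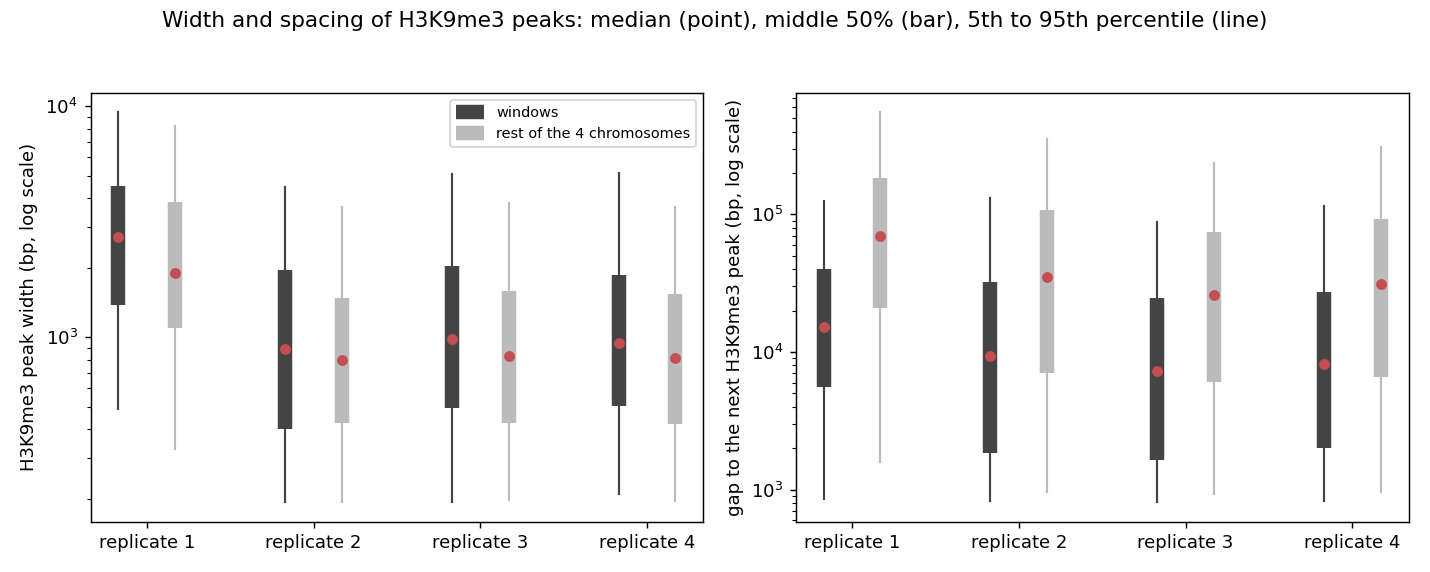
Width of H3K9me3 peaks (left) and gap to the next peak (right), in bp on log scales, for the 4 libraries of untreated cells, in the windows (dark) and the rest of the 4 chromosomes (light). The window medians of the gap lie between 7340 and 15163 bp and those of the rest between 25773 and 69942 bp.

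Peaks of the 4 H3K9me3 lists were merged where they touched or overlapped, and a library held a region if it had at least 1 bp of peak in it. The windows had 542 merged regions, of which 176 were held by all 4 libraries. This is 32.5% (95% Clopper-Pearson interval 28.5% to 36.6%, which covers counting error only), against 20.7% of all 52168 merged regions and 21.8% in the rest of the same 4 chromosomes. The share was 33.3% in the first and 34.2% in the second window of chromosome 13, 33.7% on chromosome 4, 32.8% on chromosome 2 and 27.5% on chromosome 17. Without replicate 1 the share of regions held by the remaining 3 libraries was 45.9% in the windows, against 38.8% over all regions. 

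Regions held by all 4 libraries had a median width of 4405 bp in the windows, against 3287 bp in the rest of the 4 chromosomes, and the part of this width in the share held by every list was not tested. Of the 176, 16 were 10 kb or wider, which is 9.09% against 6.66% over the genome, and 7 of the 16 lay in the first window of chromosome 13. Pairs of libraries shared more of their covered bases inside the windows than outside, with a Jaccard index (shared bases over bases covered by either) of 0.460 ± 0.113 against 0.406 ± 0.097 (SD, 6 pairs, which share libraries). It was higher in the windows in 6 of 6 pairs. Coverage and median peak width were also higher over the windows, and their part in this index was not tested.

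The widest regions held by all 4 libraries are given by window, with the share of each covered by peaks. In the first window of chromosome 13 the widest, chr13:62233057-62252974, spanned 19918 bp and was the widest of the 661 such regions on that chromosome and rank 24 in the genome, with 90.5%, 45.0%, 74.4% and 60.3% covered in replicates 1 to 4. The next, chr13:62641597-62659228, spanned 17632 bp and was covered over 84.8% to 96.6% by every library. The third, chr13:62759680-62773969, spanned 14290 bp with 26.7% to 74.9% covered. The middle one of these was thus covered over most of its length in each list, and the others less evenly. In replicates 1, 2 and 4 no peak of the window was wider than 13003, 8537 and 8060 bp. The middle region was therefore joined from more than 1 peak in those lists.

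On chromosome 4 the widest region, chr4:146916826-146932268, spanned 15443 bp with 36.5% to 95.3% covered, and the second, chr4:146837537-146849900, spanned 12364 bp with 88.9% to 99.3% covered. The third, chr4:145469486-145481259, was covered in full by replicate 1 and over 22.4% to 34.1% by the others. On chromosome 2 the widest, chr2:174975116-174988577, spanned 13462 bp and was covered over 93.5% to 100% by every library, the most even cover among the 15 regions named. The second there, chr2:177298821-177309395, had 75.8% to 97.5% covered, while the third, chr2:177330137-177340566, was covered in full by replicate 1 and over 9.71% to 12.04% by the others.

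The second window of chromosome 13 had no such evenly covered block among its 3 widest regions. The regions chr13:66327421-66339345, chr13:66112790-66121265 and chr13:68014132-68022483 were covered over 82.9% to 94.1% by replicate 1 and over 11.8% to 39.8% by replicates 2 to 4. On chromosome 17 the 3 widest were under 10 kb. There chr17:22622720-22632585 was covered over 84.0% by replicate 1 and 13.6% to 28.0% by the others, while chr17:21163964-21173613 and chr17:22053919-22062725 had 64.3% to 87.0% and 65.5% to 96.7% covered.

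H3K9me3 was not spread evenly along the windows, which were divided into 127 bins of 100 kb. The chromosome 2 window had most of its mark in its first bin and in the bins from 1900 kb on, with 13 of 31 bins free of H3K9me3 peaks in all 4 libraries. Its 3 fullest bins held 48.3% of its H3K9me3 bases, and the first bin held 19.7, 17.1, 16.1 and 16.4 kb in replicates 1 to 4. Right after that bin came the longest stretch without a peak in any of the 8 lists, chr2:175009092-175586426, of 577 kb. Only 2 such stretches on the whole chromosome were longer. Stretches over 100 kb without a peak in any list took up 60.8% of the chromosome 2 window, against 8.97% to 20.7% of the other windows. Positions alone cannot tell a stretch free of the mark from one that no read reached.

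In the first window of chromosome 13 the mark lay mostly before the midpoint, with 144 kb on average before it and 22.5 kb after it. Its fullest bin, chr13:62400001-62500000, held 26.3, 27.6, 33.6 and 29.3 kb, the most of all 127 bins by the mean. On chromosome 4 the bins from 400 to 2800 kb after the window start, a stretch chosen for its H3K9me3, held 98.2% of the H3K9me3 bases. The fullest bin, chr4:146700001-146800000, held 27.04, 20.4, 24.7 and 24.5 kb. The fullest bins were lower in the second window of chromosome 13, at 25.1, 10.4, 14.4 and 13.01 kb in chr13:66600001-66700000, and on chromosome 17, at 12.8, 10.3, 13.4 and 11.96 kb in chr17:21100001-21200000. On chromosome 17 each of the 25 bins had a peak in at least 1 library, and 21 had peaks in all 4. The mark was thus spread along that window, though 3 stretches over 100 kb, 13.4% of it, had no H3K9me3 peak in any list.

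Replicate 1 had H3K9me3 in places where the other libraries had none. In 7 of the 127 bins it alone had peaks, 3 on chromosome 4 and 4 on chromosome 2. Of these bins, singled out after their values were known, the one at 1300 kb on chromosome 4 held 19.5 kb of replicate 1 peaks and the one at 1900 kb held 12.6 kb, with 0 in replicates 2 to 4. The reverse, peaks in each of replicates 2 to 4 and none in replicate 1, occurred in 4 bins, a stricter demand than peaks in a single library. Replicate 3 also had bins to itself. Among them were the bin at 800 kb on chromosome 17, with 2.76 kb, and the bin at 3000 kb on chromosome 4, with 0.675 kb. Replicate 1 was the highest library in 62 of the 127 bins. By window this was 17 of 23 bins in the second and 6 of 15 in the first window of chromosome 13. It was 18 of 33 on chromosome 4, 13 of 31 on chromosome 2 and 8 of 25 on chromosome 17.

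**Figure D3:**
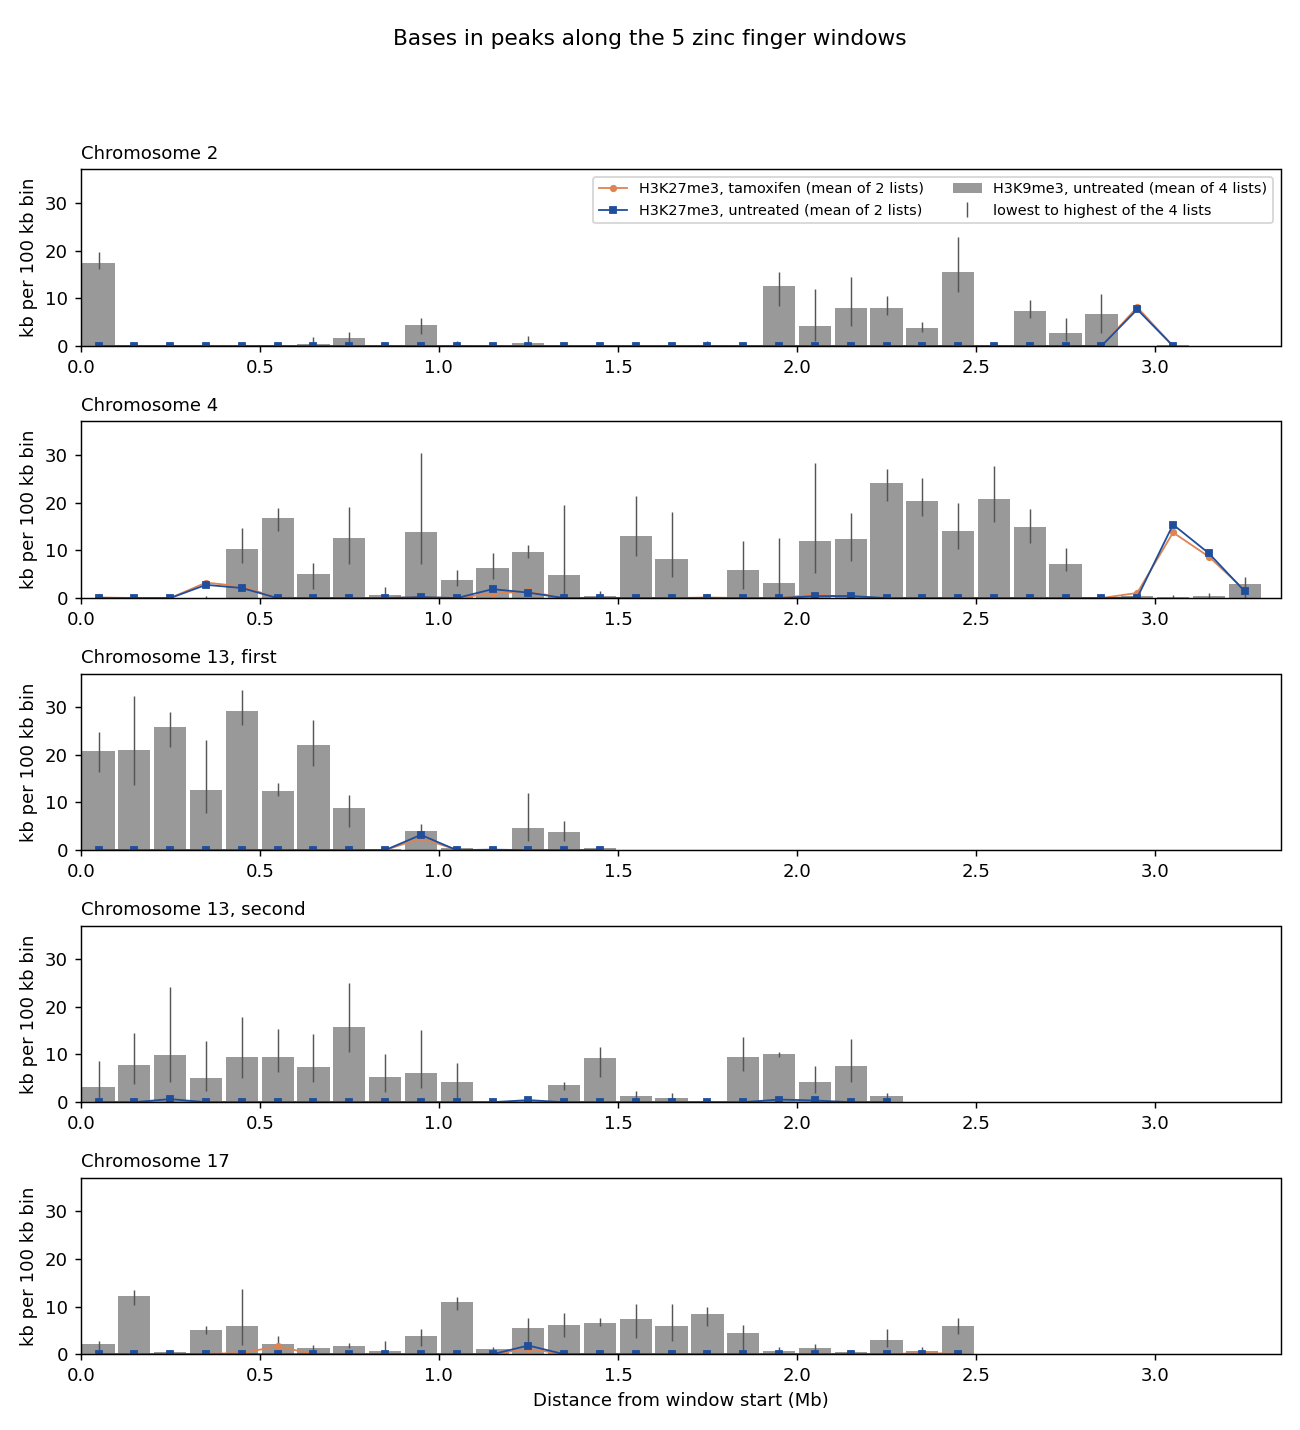
Kb in peaks per 100 kb bin along each window, against the distance from the window start in Mb. Grey bars are the mean of the 4 H3K9me3 lists with lines from the lowest to the highest list, and coloured points are means of the 2 H3K27me3 lists after tamoxifen and in untreated cells. H3K27me3 stands highest at the right edge of the chromosome 4 window, where H3K9me3 is thin.

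H3K27me3 was the scarcer mark in the windows. In untreated cells, H3K9me3 peaks covered 58.3 ± 16.2 kb per Mb (SD, n = 4) and H3K27me3 peaks covered 3.94 ± 1.04 kb per Mb (SD, n = 2) over the 5 windows. The difference was 54.3 kb per Mb, and the values of the marks did not overlap (two-sided exact permutation p = 0.133, the smallest that 4 libraries against 2 allow). Antibodies and list lengths differ between the marks, so their levels are set side by side only within these lists.

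H3K27me3 was also below the level of the rest of the chromosomes, in each state. Over the windows it covered 2.67 and 5.03 kb per Mb after tamoxifen, against 9.75 and 14.0 in the rest, which makes ratios of 0.274 and 0.358. In untreated cells it covered 3.20 and 4.67 kb per Mb, against 10.7 and 12.3 in the rest, with ratios of 0.300 and 0.379. All 4 lists thus lay below 1, and the states overlapped.

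The chromosome 4 window stood apart from the other 4 in this respect. Its coverage was 6.44 and 14.5 kb per Mb after tamoxifen, at ratios of 0.691 and 0.927 to the rest of the chromosome, and 8.24 and 13.1 kb per Mb in untreated cells, at ratios of 0.786 and 1.00. In the other windows the ratios were 0 to 0.190 after tamoxifen and 0 to 0.264 in untreated cells. The chromosome 4 window held 11 of 23 and 34 of 51 window peaks after tamoxifen, and 8 of 12 and 29 of 40 in untreated cells.

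**Figure D4:**
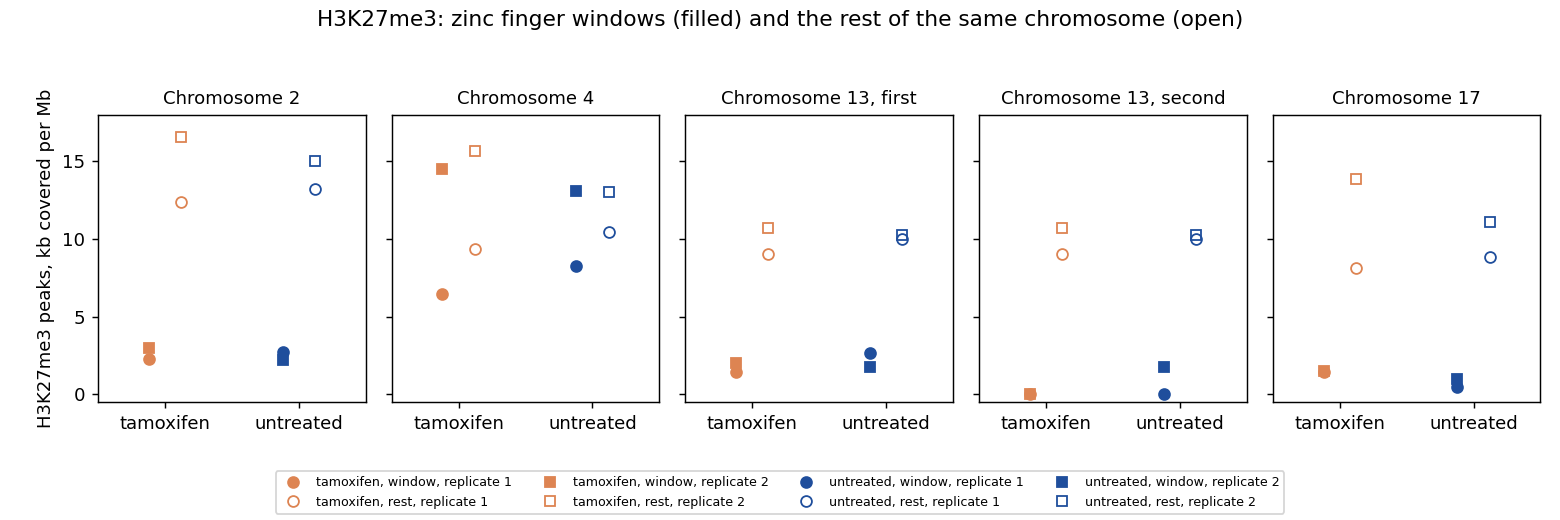
Kb covered by H3K27me3 peaks per Mb (vertical axis) in each window (filled) and in the rest of the same chromosome (open), with the lists after tamoxifen on the left and those of untreated cells on the right of each panel. In 4 of the 5 windows all filled points lie under 3 kb per Mb, and the states overlap on chromosome 4.

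The comparison of tamoxifen with untreated cells asked whether H3K27me3 in the zinc finger windows differed once the loss of Setdb1 was induced. Coverage over the windows was 3.85 ± 1.67 kb per Mb after tamoxifen and 3.94 ± 1.04 kb per Mb in untreated cells (SD, n = 2 each), a difference of -0.0835 kb per Mb (two-sided p = 1.0 by exact permutation, with 0.333 the lowest that 2 lists against 2 allow). Within batches it was -0.530 (first) and 0.363 (second), so it had no steady direction. Peak numbers were 23 and 51 after tamoxifen against 12 and 40 in untreated cells, 11 more in each batch (two-sided exact permutation p = 0.667). Over the whole lists the tamoxifen peaks were also the more numerous, at 15116 and 22265 against 7041 and 17094. In the rest of the chromosomes the median peak was 772.5 and 755.5 bp wide after tamoxifen, against 2546.5 and 802 bp in untreated cells. The first-batch lists thus differed in peak width as well, and its part in the peak number was not tested. With the 7041 widest peaks of each list, the window number was lower after tamoxifen, by 1 peak on average.

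On chromosome 17 both tamoxifen lists had short H3K27me3 peaks that the untreated lists lacked. It held 7 and 8 peaks after tamoxifen and 1 and 1 in untreated cells, with no overlap between the states (two-sided p = 0.333 by exact permutation, the lowest it can give). Coverage was 1.41 and 1.53 kb per Mb after tamoxifen and 0.450 and 1.01 kb per Mb in untreated cells. Besides 1 region held by all 4 lists, the window had 13 regions, each from a single list, and all 13 came from a tamoxifen list, 6 from replicate 1 and 7 from replicate 2. Single regions of a tamoxifen list were also the most frequent kind elsewhere, at 47.4% of all merged regions, against 13 of 14 here. The 13 regions were 185 to 846 bp wide, and none was shared between the tamoxifen lists, so they are not counted as gained. Peaks under 1 kb made up 57.3% and 62.0% of the tamoxifen peaks in the rest of the 4 chromosomes. The untreated lists had 14.0% and 57.9% there, so untreated replicate 1 held few peaks of this size on these chromosomes. Of the 13, 7 lay within 55.5 kb, in chr17:21502822-21558359, a stretch chosen for its peaks, 4 of them from replicate 1 and 3 from replicate 2, and the 4 of replicate 1 lay between peaks of replicate 2.

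In the second window of chromosome 13 the direction was the other way. No H3K27me3 peak was found in either tamoxifen list or in untreated replicate 1, and 5 were found in untreated replicate 2. At the density of the rest of the chromosome, 12.5 and 14.7 peaks would fall in a stretch of that length after tamoxifen, and 5.86 and 12.1 in untreated cells. In the chromosome 2 window the numbers were 4 and 5 peaks after tamoxifen and 2 and 2 in untreated cells, again without overlap (two-sided exact permutation p = 0.333), with coverage of 2.27 and 2.97 against 2.71 and 2.24 kb per Mb. The rest of chromosome 2 also held more peaks after tamoxifen, 1254 and 1737 against 602 and 1341. Of the 5 merged regions in the chromosome 2 window, 2 were held by all 4 lists and 3 came from a single tamoxifen list. In the first window of chromosome 13 the peak numbers were 1 and 4 after tamoxifen against 1 and 3. Numbers this small leave each window resting on a few peaks.

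The 4 H3K27me3 lists merged into 72 regions in the windows. Of these, 11 were kept, that is, held by all 4 lists, which is 15.3%, the same as the 15.3% over all 31723 merged regions. None was gained, that is, held by both tamoxifen lists and neither untreated list, where 2.18% were over all regions. None was lost, the reverse class, which holds 0.281% of all regions. A count of 0 among 72 allows a share of up to 4.17%, so a share of gained regions like that of the genome was not detectable here. A further 50 regions came from a single list, which is 69.4% against 66.4% over all regions. Of these 50, 35 or 70% were from a tamoxifen list and 15 from an untreated list, against 71.4% from a tamoxifen list over all regions, so the windows were close to the genome in these shares. The last 11 had other combinations, all of these on chromosome 4.

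The kept H3K27me3 regions were compared with H3K9me3 by distance. None of the 11 overlapped an H3K9me3 peak of any list, and in the rest of the 4 chromosomes 45 of 1110 did, which is 4.05%, so few would overlap among 11 at that share. The nearest H3K9me3 peak of any list was 3811 to 55171 bp away, with a median of 31292 bp, against a median of 27952 bp in the rest. The nearest region held by all 4 H3K9me3 libraries was 47742 to 377523 bp away, with a median of 116583 bp, against 141307 bp in the rest, where 9 of 1110 overlapped such a region. The medians were thus of similar size in the windows and in the rest. H3K9me3 peaks lay closer together in the windows, with a gap ratio of 0.256, and the distances were not adjusted for this. Of the 11, 7 were on chromosome 4, 2 on chromosome 2, and 1 each in the first window of chromosome 13 and on chromosome 17.

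On chromosome 4 the kept regions lay towards the ends of the window, 2 of them at 334 and 404 kb after its start and 5 beyond 3000 kb. The bins of 6 of the 7 held less H3K9me3 than the median bin of the window, at 5.94 kb, while the bin of the region at 404 kb held more, at 8.33, 7.45, 14.6 and 10.4 kb. The stretch from 400 to 2800 kb, chosen for its H3K9me3, held 98.2% of the H3K9me3 bases. Outside it, H3K27me3 peaks covered 19.0 and 38.1 kb after tamoxifen and 24.1 and 34.0 kb in untreated cells. Inside it they covered 2.27 and 9.74 kb after tamoxifen and 3.10 and 9.22 kb in untreated cells, though it is the longer part. The widest kept region there, chr4:147501262-147507960, spanned 6699 bp and was covered over 51.2% and 86.8% after tamoxifen and over 87.4% and 74.6% in untreated cells. The next widest, chr4:147643524-147649430, chr4:147534997-147540757, chr4:147657996-147663220 and chr4:147546472-147550737, were 4266 to 5907 bp wide. All 5 lay in the last 300 kb of the window.

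Of the other kept regions, chr2:177852890-177859059 was the widest at 6170 bp and the most evenly held, with 79.9% and 76.1% covered after tamoxifen and 89.7% and 85.4% in untreated cells. Its neighbour chr2:177875808-177879183 had 58.5% and 100% covered after tamoxifen and 85.0% and 49.5% in untreated cells. In the first window of chromosome 13, chr13:62986935-62991269 had 48.7% and 35.0% covered after tamoxifen and 91.3% and 56.0% in untreated cells. In this region and in chr2:177852890-177859059, of the 9 named, both tamoxifen lists lay below both untreated lists. How often this order occurs among all kept regions was not counted. With 2 lists against 2 the lowest exact permutation p is 0.333, so the order alone does not show a difference between the states. On chromosome 17, chr17:22216826-22219734 had 21.1% and 58.1% covered after tamoxifen and 38.6% and 87.0% in untreated cells.

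Bins of the windows were also divided by H3K9me3 alone. The 81 bins in which all 4 H3K9me3 libraries had peaks held 97.1% of the H3K9me3 bases of the windows. H3K27me3 covered 0.975 and 2.00 kb per Mb there after tamoxifen, against 5.66 and 10.4 kb per Mb in the other 46 bins. In untreated cells the values were 1.01 and 2.13 kb per Mb, against 7.06 and 9.14. All 4 lists were thus lower where H3K9me3 was held by every library, in both states. This came mainly from the windows of chromosomes 2 and 4. On chromosome 17 and in the first window of chromosome 13 most of the few H3K27me3 peaks lay in the bins with H3K9me3. In the second window of chromosome 13 only untreated replicate 2 had peaks, with 1.64 kb per Mb in those bins against 2.17 in the others.

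Some H3K27me3 peaks of the second batch did lie on H3K9me3. Of the window peaks, 5 of 51 in tamoxifen replicate 2 and 5 of 40 in untreated replicate 2 overlapped an H3K9me3 peak of at least 1 list, which is 9.80% and 12.5%, against 2.21% and 1.72% in the rest of the 4 chromosomes. H3K9me3 peaks covered 2.87 to 3.97 times as many bases per Mb in the windows as in the rest, and these shares were not adjusted for that. On regions held by all 4 H3K9me3 libraries the counts were 3 of 51 and 3 of 40. In the first batch they were 0 of 23 after tamoxifen and 0 of 12 in untreated cells for any H3K9me3 peak, and counts of 0 allow up to 13.04% and 25%. The overlapping peaks were all on chromosome 4 and occurred in both states.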

How the data were processed

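The authors deposited 1 peak list per library, in which 3 columns hold positions on mm9 (a chromosome name and the ends of the interval) and no other value. Reads were handled with Bowtie 0.12.7 and MACS2, per the submitters' processing notes, which give version 2.0.10 for each replicate 1 and version 2.1.0 elsewhere. The caller's threshold, mode and control are not given in the sources that were used. Together with depth they affect the number and width of peaks. Positions are printed counting from 1.

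Groups came from the titles of the 13 samples. First libraries carry no replicate number and were numbered 1. The 5 inputs were left out.

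A peak belonged to the window that held its midpoint, and covered bases were cut at the window's ends. The rest of a chromosome ran from the first to the last peak of any list, without the windows. Windows were compared with the rest by two-sided exact sign-flip permutation tests of log2 ratios over libraries, with Benjamini-Hochberg adjustment over the 5 windows. For states and marks, group means were permuted in exact two-sided tests. The text names per window the 3 widest H3K9me3 regions held by all 4 libraries, the H3K27me3 regions held by both lists of a state (at most 5, the widest first), and the fullest 100 kb bin. The window members, measures and regions were chosen with earlier results of these data known.

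Computation ran under Python 3.11.15 (pandas 2.3.3, NumPy 2.4.6, Matplotlib 3.10.9, SciPy 1.17.1), and the code was tested on simulated data. Alternatives were other window edges and membership, flanks of 5 Mb, peaks of at least 500 bp, merging over 1 kb, an equal number of widest peaks (18037 for H3K9me3 and 7041 for H3K27me3), a cover of at least 50%, each batch alone, each library left out, and the replicate number as a block.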

Additional observations from a re-analysis of the deposited data

Results flagged for a closer look

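Among 30 sets of 4 H3K9me3 values in the windows, 12 had a library far from the others by Dixon's criterion, in each case replicate 1 as the highest. Chance flags about 1 in 20 sets. The sets share libraries and peaks and are not independent. Coverage of window over rest was 5.16 in replicate 1 on chromosome 4, against 3.56 to 3.74 in the other libraries. It was 4.36 against 1.99 to 2.17 in the second window of chromosome 13, and 3.97 against 2.87 to 2.998 over all windows.

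The median peak width of replicate 1 was 3059 bp against 911 to 982 bp on chromosome 2, and 2644 against 883.5 to 1003 bp on chromosome 4. It was 2871 against 1067.5 to 1170.0 bp in the first and 2519 against 705 to 790.0 bp in the second window of chromosome 13. On chromosome 17 it was 2253.5 against 864 to 1016.5 bp, and over all windows 2703 against 891 to 979.5 bp.

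The median gap of replicate 1 was 32207 bp against 9448 to 11854 bp on chromosome 2, 9748 against 4001.5 to 4926.5 bp in the first window of chromosome 13, and 48243 against 14800 to 19503 bp on chromosome 17. Replicate 1 is also the one H3K9me3 list from the older version of the peak caller, so the library and the version cannot be told apart.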

How the results depend on the processing

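H3K9me3 coverage over the 5 windows stayed above the rest of the chromosomes under all 15 alternatives, with geometric mean ratios of 2.65 to 3.97, as did every window by itself. One of these, added after the data were seen, left out stretches over 100 kb without a peak in any list and gave 3.68 instead of 2.38 on chromosome 2, a shift that follows by construction where such stretches fill much of a window. The number, width and gap ratios over all windows kept their direction under 14 alternatives each. The two-sided exact p could not pass 0.05 in any setting, so it does not measure stability.

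Single windows changed direction in width and spacing. For the second window of chromosome 13 the log2 width ratio of -0.04 became 0.39 with the first batch alone, 0.18 with an equal number of widest peaks, 0.11 against 5 Mb on either side, 0.058 with peaks joined over 1 kb and 0.040 with windows narrowed by 250 kb, and lay between -0.18 and 0.031 with 1 library left out (above 0 without replicate 2 or 4). On chromosome 17 the log2 width ratio was -0.14 against 5 Mb on either side and -0.038 with windows narrowed by 250 kb, and the log2 gap ratio was 0.27 against 5 Mb on either side. The cause was not tested.

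The share of H3K9me3 regions held by every library was 60.3% if 2 of the 4 libraries sufficed and 45.9% in the second batch. Leaving out 1 library gave 36.1% to 45.9%, since fewer lists must then hold a region. H3K27me3 coverage of window over rest, after tamoxifen and in untreated cells, was 0.228 and 0.249 with windows narrowed by 250 kb, 0.382 and 0.417 with windows widened by 250 kb, and 0.246 and 0.280 against 5 Mb on either side.

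The difference of tamoxifen and untreated H3K27me3 coverage, -0.0835 kb per Mb, was 0.00272 with peaks joined over 1 kb, 0.363 in the second batch, and -1.26 to 1.10 with 1 library left out. The difference in peak number was -1 with an equal number of widest peaks and -3 to 25 with 1 library left out, so each rests on single lists. With the replicate number as a block the differences were the same, -0.0835 kb per Mb and 11 peaks, and the smallest p of a paired sign flip is 0.5.

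Within a batch or without 1 list, a state has 1 list, so more regions count as gained or lost by construction. There were 28 gained and 17 lost in the second batch and 9 gained in the first, and leaving out 1 list gave 0 to 28 gained and 0 to 16 lost. With a cover of at least 50%, 1 region was lost. With the widest peaks alone, 0 of 56 H3K27me3 peaks lay on H3K9me3 regions held by all 4 libraries, against 4.76% of 126. Depth is unknown, so a stretch or window without peaks cannot be read as free of the mark.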
